A study of Mus musculus with 8 samples.

Results

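Notch is a receptor that turns contact between neighbouring cells into gene transcription, and 32 genes of this pathway were followed in muscle stem cells of old and young mice. The 32 were chosen by symbol from a fixed list of receptors, ligands, ligand-handling enzymes, proteases, nuclear partners, targets and modulators. All 32 were found among the 31723 genes of the deposited table, and all 32 passed the filter on low values (10 normalized counts or more on average in the 8 libraries). The cells were sorted by flow cytometry from hindlimb muscle of wild-type (WT) C57BL/6 mice and taken as freshly isolated. There were 4 libraries from old mice (20 months) and 4 from young mice (3 months), and the labels give no other difference in genotype or treatment between them. The labels do not say whether a library came from 1 animal or from a pool, so the p-values measure the spread between these samples, which may be technical.

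In this pathway a Delta or Jagged ligand on one cell pulls on a Notch receptor on the next. ADAM proteases and then the gamma-secretase complex cut the receptor, and the freed intracellular part joins RBPJ and a Mastermind-like coactivator on DNA to switch on HES and HEY repressor genes. In adult mouse muscle, Notch signalling is known for holding stem cells in quiescence, and loss of RBPJ from these cells leads to their differentiation and depletion.

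Levels are normalized counts, that is, reads assigned to a gene divided by a size factor of the library. Changes are log2 differences, old minus young, on the log2(normalized count + 1) scale with their standard error (SE), which understates changes of low genes. A gene was called when its limma p-value, Benjamini-Hochberg adjusted over the 14822 tested genes, was under 0.05. Libraries held between 19.04 M and 34.68 M recovered reads. The sorted cells' own markers were present in every library, with Pax7 between 1868 and 3485 and Myf5 between 2852 and 4135 normalized counts. Of 9 such markers 3 had a higher mean in old, and 0 were called higher and 3 lower (3.34% and 1.88% of all tested genes). The lower ones were Itga7 (-0.68 ± 0.11), Chrdl2 (-0.76 ± 0.17) and Calcr (-0.47 ± 0.08), with limma adjusted p of 0.00954, 0.0298 and 0.0114. The 9 summed to 122657 to 147981 in old and 130056 to 161577 in young (exact permutation p = 0.2). Sdc4 was the largest part of that sum, with 54519 to 74099 over the 8 libraries, so the sum gives the 3 lower markers little weight. Markers of other cells were present as well, and 3 libraries stood apart in endothelial ones. The summed count of 11 endothelial markers was 31254, 26195, 67433 and 26780 in old libraries 1 to 4, against 22616, 42220, 81878 and 23105 in young libraries 1 to 4 (exact permutation p = 0.857, two-sided). Of the 11 markers 1 had a higher mean in old, and 0 were called higher and 0 lower (3.34% and 1.88% of all tested genes). The highest sums were those of young 3, old 3 and young 2. Fewer cells of a type and less RNA per cell cannot be told apart in such bulk samples.

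In old cells 1 of the 32 genes was higher (Aph1b) and 2 were lower (Psen2 and Maml1), while 29 did not pass the test. Over all tested genes 3.34% were higher and 1.88% lower by the same rule, 5.22% together. On the recovered reads edgeR called 0 of the 32 higher and 2 lower (Psen2 and Maml1), with 2.76% and 2.01% of all genes, and DESeq2 called 2 higher (Aph1b and Maml3) and 4 lower (Psen2, Maml1, Hey1 and Heyl), with 5.18% and 4.05% of all genes. The median change of the 32 was -0.04, beside 0.04 over all tested genes. At an unadjusted p under 0.05 there were 4 higher and 4 lower, or 8 of 32, where 20.8% of all tested genes had such a p. The old and young libraries did not overlap for 4 genes, Aph1b and Maml3 (old above young, as for 7.99% of all genes) and Psen2 and Maml1 (old below young, as for 5.46%). Without young 2, young 3 and old 3, an alternative chosen after the data were seen, 2 were higher (Hes1 and Maml3) and 4 lower (Psen2, Maml1, Hey1 and Notch3). In those 5 libraries 9.14% of all tested genes were higher and 2.79% lower.

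**Figure D1:**
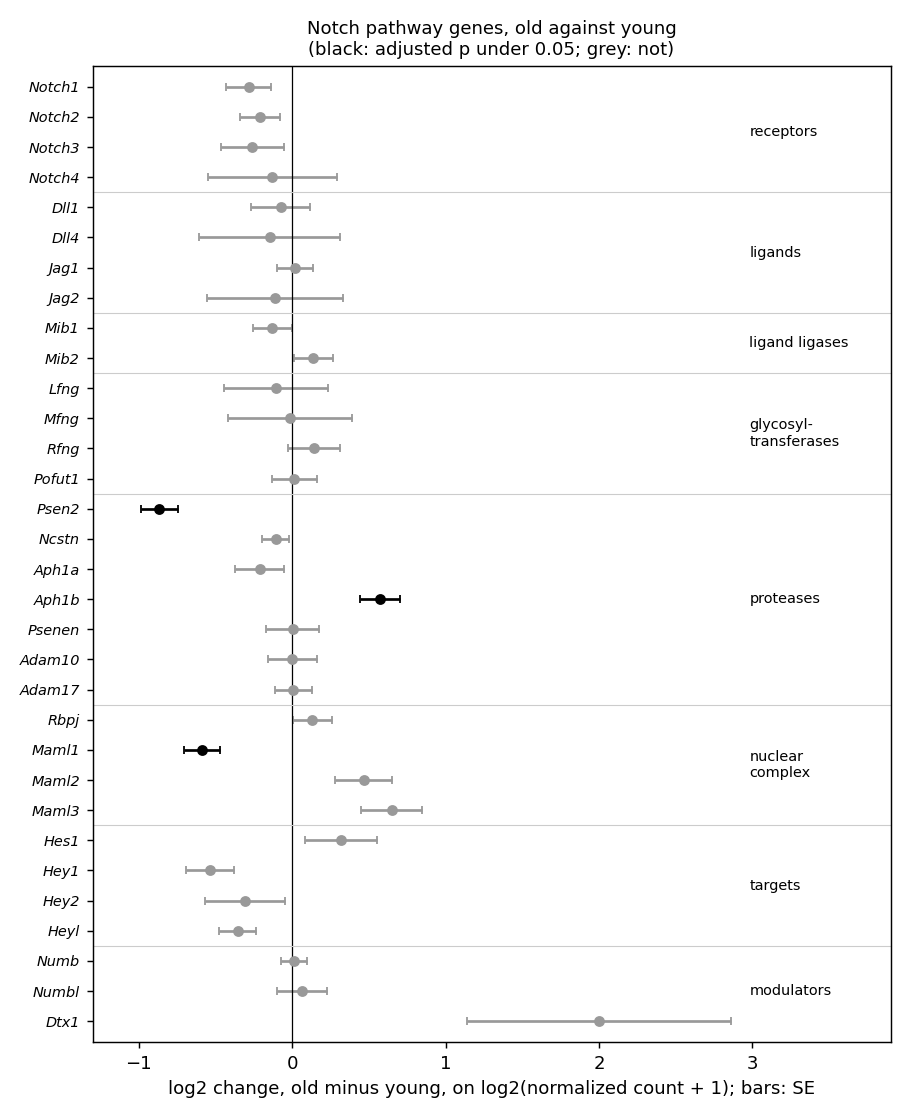
Change of each of the 32 genes, old minus young, in log2 units on the horizontal axis, grouped by role, with bars of 1 SE. Psen2, Maml1 and Aph1b, in black, had an adjusted p under 0.05, and the widest bars belong to Dtx1, Dll4, Jag2, Notch4 and Mfng.

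The proteases held the largest called change, that of Psen2. It encodes presenilin 2, a catalytic subunit of gamma-secretase. RefSeq (GRCm38.p6) gives 2 start sites for Psen2, at both of which the 250 bases before and 50 after the start were searched for letters bound by the pathway's own factors. The windows are shown because this was the gene with the smallest p of the 32, and because the downstream one holds both kinds of match. Both are printed along the gene's strand, the minus strand, with matches in capitals. They are GTGGGAA, the RBPJ site, here as its reverse complement TTCCCAC at bases 162 to 168, and CACGTG, the E-box that HEY proteins can bind, at bases 242 to 247.
Psen2, downstream start, chr1:180245901-180246200: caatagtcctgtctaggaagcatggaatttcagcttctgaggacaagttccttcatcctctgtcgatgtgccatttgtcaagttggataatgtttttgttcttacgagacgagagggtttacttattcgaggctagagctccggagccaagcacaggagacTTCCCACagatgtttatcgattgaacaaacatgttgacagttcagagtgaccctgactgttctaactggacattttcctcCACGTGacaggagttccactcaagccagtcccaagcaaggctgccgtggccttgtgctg
Psen2, upstream start, chr1:180256251-180256550: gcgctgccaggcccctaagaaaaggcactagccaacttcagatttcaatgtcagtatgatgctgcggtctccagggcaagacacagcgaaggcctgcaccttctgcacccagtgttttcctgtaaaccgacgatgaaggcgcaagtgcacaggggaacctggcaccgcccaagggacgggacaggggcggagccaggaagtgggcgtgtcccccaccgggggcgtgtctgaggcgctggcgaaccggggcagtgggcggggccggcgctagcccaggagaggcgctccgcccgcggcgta

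Of the 32 genes, 27 matched the promoter table, with 35 windows. GTGGGAA, on either strand, stood in 4 of the 35 (Aph1a, Hey2, Lfng and Psen2), against 6.38% of all 32851 windows of that length. Its core TGGGAA, which lies inside the longer motif, stood in 9 of 35 and in 25.6% of all windows, and CACGTG in 3 of 35 (Adam10, Lfng and Psen2) and in 7.15% of all. These are matches of letters and not measured binding. Hes1, Hey1, Heyl, Mfng and Mib1 were not matched.

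Psen2 had 384, 302, 379.9 and 304 normalized counts in old libraries 1 to 4, against 619.8, 636, 617 and 607 in young libraries 1 to 4. Every old library lay below every young one, and the young values lay close together (342 ± 45.7 in old and 620.0 ± 12.3 in young, SD, n = 4 each). Psen2 fell by 0.86 ± 0.12 in log2 units, to 0.549 of the young level (limma adjusted p = 0.00474). The call held in every one of 20 alternatives run, with values between -0.96 and -0.81 and adjusted p between 1.3e-08 and 0.0177. Within each library, Psen2 relative to Ncstn, the nicastrin subunit that receives the substrate, was 13.8%, 10.2%, 11.8% and 10.3% in old, against 19.2%, 20.3%, 17.3% and 21.0% in young. This ratio, picked after the values were seen, does not depend on the size factors, and it too did not overlap between ages.

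Aph1b, which encodes an APH-1 scaffold subunit of gamma-secretase, moved the other way. It had 555, 618, 578 and 543 normalized counts in old libraries 1 to 4, against 479.8, 342, 355 and 375 in young libraries 1 to 4. All old libraries were above all young ones, with young 1 nearest to them. The change was 0.57 ± 0.13 (adjusted p = 0.0327), and it was 1.49-fold. This call was close to the threshold: it was lost in 12 of 20 alternatives, with edgeR (adjusted p = 0.0546) and without any single library other than young 1 among them, while the value stayed between 0.43 and 0.68 (adjusted p between 0.0148 and 0.12). Aph1c, a near-identical mouse copy of Aph1b whose reads may be shared with it, was looked at after its values were seen. It had 92.9, 82.5, 82.6 and 50.8 normalized counts in old, against 37.8, 37.0, 33.2 and 47.9 in young, a change of 0.95 ± 0.26 (adjusted p = 0.0694).

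Aph1a, the other APH-1 gene, did not pass the test. Its level was 164 ± 9.72 normalized counts in old and 191 ± 29.7 in young (-0.21 ± 0.16, adjusted p = 0.505), and 12.9% of its exon bases lie opposite exons of Car14, whose reads cannot be told apart from its own without strand. Aph1b and Aph1c together made up 80.4%, 82.0%, 79.5% and 77.4% of the counts of the 3 APH-1 genes in old libraries 1 to 4, against 76.7%, 67.3%, 62.9% and 68.5% in young libraries 1 to 4. The old shares were all above the young ones, with old 4 and young 1 the nearest pair. Aph1b alone made up 68.9%, 72.3%, 69.5% and 70.8% in old, against 71.1%, 60.7%, 57.5% and 60.8% in young, and here young 1 lay within the old values. These shares, of counts not scaled by exon length, were formed after the values were seen.

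None of the remaining proteases passed the test. Ncstn had 2972 ± 177 normalized counts in old and 3206 ± 279 in young (-0.11 ± 0.09). Psenen, the PEN-2 subunit that triggers maturation of gamma-secretase, had 193 ± 36.7 in old and 190.4 ± 16.6 in young. Adam10, the main sheddase of ligand-bound Notch, had 1676 ± 389 in old and 1659.9 ± 251 in young, with 2255 in old 3. Adam17, a related sheddase, had 1413 ± 80.7 in old and 1417 ± 235 in young. Their adjusted p lay between 0.543 and 0.999.

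**Figure D2:**
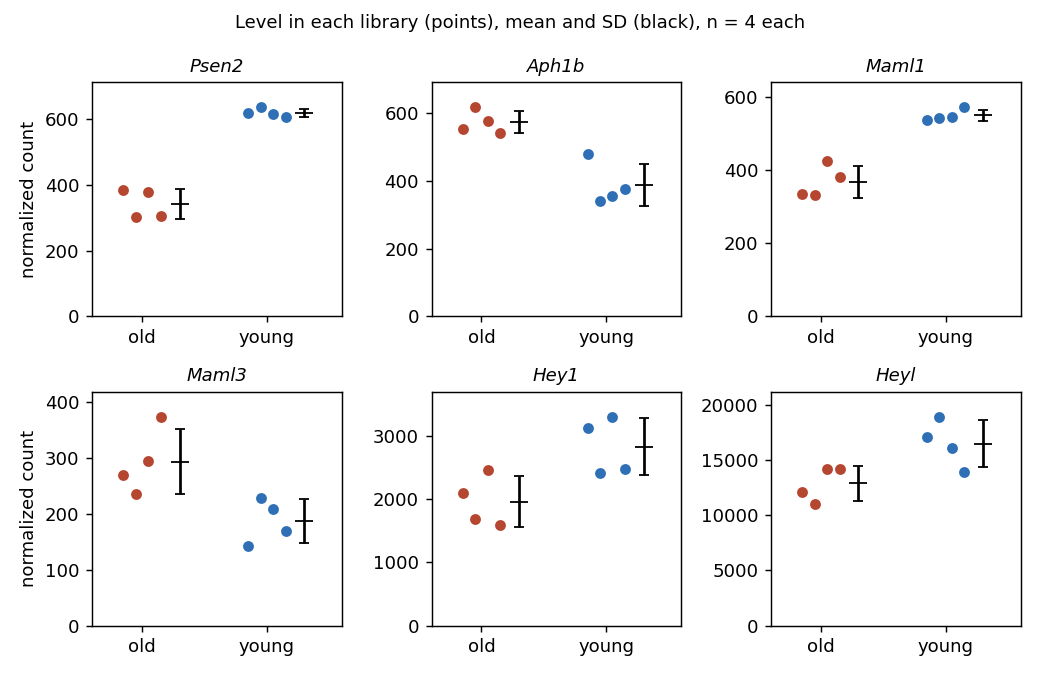
Normalized counts of 6 genes in each library (points; old red, young blue; vertical axes start at 0), with the mean and SD in black. Old and young points do not overlap for Psen2, Aph1b, Maml1 and Maml3, whereas those of Hey1 and Heyl overlap at 1 or more libraries.

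Of the 4 genes of the nuclear complex, 1 was lower in old (Maml1) and 0 were higher, beside 1.88% and 3.34% of all tested genes. Mastermind-like coactivators recruit histone acetyltransferases to Notch and RBPJ on DNA. Maml1 had 335, 331, 425 and 379.9 normalized counts in old libraries 1 to 4, against 538, 543, 546 and 572 in young libraries 1 to 4. The ages did not overlap, and Maml1 fell by 0.59 ± 0.12 (adjusted p = 0.0199), to 0.666 of the young level. It lost its call without young 1 (adjusted p = 0.0552), young 4 (0.0597), old 1 (0.0591) or old 2 (0.0582), with values between -0.66 and -0.54 over the runs without 1 library and an adjusted p of at most 0.0597 over 20 alternatives.

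Maml3 had 270.3, 236, 294 and 374 normalized counts in old libraries 1 to 4, against 142, 229, 208 and 170.2 in young libraries 1 to 4. Old 2 and young 2 were the nearest pair, without overlap. The change of 0.65 ± 0.20 did not pass (adjusted p = 0.09; 0.0454 with DESeq2 and 0.0986 with edgeR on the recovered reads). Maml2 had 391, 422, 448 and 387 in old, against 214, 266, 404 and 339.6 in young, overlapping at young 3 (0.47 ± 0.19, adjusted p = 0.189).

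The 3 coactivators together summed to 1073 ± 93.3 normalized counts in old and 1043 ± 111 in young (n = 4 each), so that the sum differed by less than its spread. Within that sum the share of Maml1 was 33.6%, 33.4%, 36.4% and 33.3% in old libraries 1 to 4, against 60.1%, 52.3%, 47.1% and 52.9% in young libraries 1 to 4. The share of Maml3 was 27.2 ± 3.92% in old and 17.9 ± 2.94% in young. These shares were formed after the values were seen and carry no test. The sum and the shares are of counts not scaled by exon length, which differs between the 3 genes. Rbpj, the DNA-binding partner itself, had 2685 ± 184 in old and 2477 ± 417 in young (0.13 ± 0.13, adjusted p = 0.606), with its lowest value, 1882, in young 3.

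Among the target genes, Hey1 and Heyl lay lower in old cells without passing the test, and Hes1 did not go with them. HEY and HES proteins are repressors that carry out much of what Notch does in a cell. The Hey2 window is shown as the 1 target promoter of the 4 that was matched, and it holds GTGGGAA on each strand, the second across the start itself (bases 247 to 253 of 300, along the minus strand; the first, as TTCCCAC, at bases 44 to 50).
Hey2, chr10:30842734-30843033: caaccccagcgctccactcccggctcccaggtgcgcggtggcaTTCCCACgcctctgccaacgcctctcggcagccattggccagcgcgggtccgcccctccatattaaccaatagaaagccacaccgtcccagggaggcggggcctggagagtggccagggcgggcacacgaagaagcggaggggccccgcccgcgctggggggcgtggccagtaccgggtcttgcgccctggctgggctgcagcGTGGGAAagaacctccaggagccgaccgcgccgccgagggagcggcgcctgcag

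Hey1 had 2104, 1684, 2459 and 1592 normalized counts in old libraries 1 to 4, against 3126, 2406, 3300.3 and 2481 in young libraries 1 to 4. Old 3 lay just above young 2, and the other old libraries lay below all young ones. The change was -0.54 ± 0.16 (adjusted p = 0.0806). It passed with DESeq2 (adjusted p = 0.0161), and edgeR gave 0.071. Hey1 also passed without old 3 (-0.65, adjusted p = 0.0367), and without young 2, young 3 and old 3 (-0.65, adjusted p = 0.0191). Old 3 held the highest old value, so leaving it out deepens the fall by itself. The p-values of the runs without old 3 therefore carry no support.

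Heyl was the most abundant of the 32. It had 12139, 11025, 14180.1 and 14217 normalized counts in old libraries 1 to 4, against 17093, 18925, 16063 and 13889 in young libraries 1 to 4. Young 4 fell among the old values. The change was -0.35 ± 0.12 (adjusted p = 0.122; 0.0329 with DESeq2 and 0.0934 with edgeR). Hey2 was a low gene, with 45.6 ± 10.9 in old and 55.7 ± 7.18 in young (-0.31 ± 0.26, adjusted p = 0.559).

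Hes1 had 2008, 2079, 2775 and 2026 normalized counts in old libraries 1 to 4, against 1255, 2073, 2763 and 1349 in young libraries 1 to 4. The 2 high young values were those of young 2 and young 3, and the high old value was that of old 3. The change was 0.32 ± 0.23 (adjusted p = 0.488). Without those 3 libraries Hes1 was 0.65 higher in old (adjusted p = 0.00495), with 3 old and 2 young libraries left. In that run 9.14% of all tested genes were higher. Leaving out the 2 highest young values and the highest old one raises the change by itself, so this p-value carries no support. Within each library Hey1 per Hes1 was 105%, 81.0%, 88.6% and 78.6% in old, against 249%, 116%, 119% and 184% in young, again a ratio formed after the values were seen. Its old values were all below its young ones. Heyl per Hes1 was 604%, 530.4%, 511% and 702% in old, against 1362%, 913%, 581% and 1029% in young, and young 3 lay within the old values.

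The receptors all had negative changes, and none passed the test (limma called 0 of 4, with 0 of them at p under 0.05 before adjustment; edgeR and DESeq2 called 0). Notch1 and Notch2, receptors known in muscle stem cells, were at -0.28 ± 0.15 and -0.21 ± 0.13 (adjusted p = 0.313 and 0.399). Notch1 had 3572 ± 603 normalized counts in old and 4347 ± 736 in young, and Notch2 3123 ± 313 in old and 3648 ± 632 in young.

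Notch3, a receptor of muscle stem cells and of pericytes and smooth muscle, was the most abundant receptor. It had 7211, 8009, 9748 and 7982 normalized counts in old libraries 1 to 4, against 12739.5, 11598, 6081 and 10297 in young libraries 1 to 4. Young 3 was the lowest of all 8, and the other young libraries were above every old one. The change was -0.26 ± 0.21 (adjusted p = 0.525), and it lay between -0.49 and -0.13 over the runs without 1 library. The lowest of these was the run without young 3 (adjusted p = 0.0443). Leaving out the lowest young value deepens the fall by itself, so this p-value carries no support. The summed count of 9 pericyte and smooth muscle markers was 24229, 22757, 19096 and 22184 in old libraries 1 to 4, against 11232, 26031, 21935 and 11383 in young libraries 1 to 4. It was lowest in young 1, where Notch3 was highest, and highest in young 2, where Notch3 was second and Heyl first among the 8. The sums overlapped between ages (exact permutation p = 0.343). Of the 9 markers 7 had a higher mean in old, and 1 was called higher and 0 lower (Abcc9, 1.02 ± 0.22, limma adjusted p = 0.0259), beside 3.34% and 1.88% of all tested genes. All 4 defining pericyte markers were above 0 in every library (Rgs5 at 3021 or more). The part of these cells in the levels of Notch3 and Heyl was not tested.

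Notch4, a receptor known from endothelial cells, varied more within an age than between ages. It had 373, 355, 762 and 344 normalized counts in old libraries 1 to 4, against 258, 646, 1000.2 and 297 in young libraries 1 to 4 (-0.13 ± 0.42, adjusted p = 0.906). The 3 high values were those of young 3, old 3 and young 2, in the order of the endothelial marker sums.

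No ligand passed the test (limma called 0 of 4, and 0 had p under 0.05 before adjustment; edgeR and DESeq2 called 0). Dll4, the Delta ligand known from endothelium, had 1077, 919, 2548 and 916 normalized counts in old libraries 1 to 4, against 853, 2039, 2775 and 717 in young libraries 1 to 4 (-0.15 ± 0.46). Jag2, a Jagged ligand, had 426, 439.6, 1204 and 413 in old, against 439.6, 792, 1168 and 311 in young (-0.11 ± 0.44). Both were high in young 2, young 3 and old 3 and low in the other libraries of each age.

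Dll1, a Delta ligand made by differentiating myogenic cells in mice, had 494 ± 47.4 in old and 536 ± 166 in young (-0.08 ± 0.20), and its exons lie opposite those of A930024N18Rik over 20.5% of their bases. Jag1, the other Jagged ligand, had 1371 ± 214 in old and 1344 ± 74.5 in young (0.02 ± 0.12). It was the most even ligand across libraries, between 1126 and 1571.

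The 3 libraries with the highest endothelial sums were also the 3 highest for 7 of the 32 genes: Notch1, Notch4, Dll4, Jag2, Adam10, Lfng and Mfng. The same held for 5.58% of all tested genes. The defining markers moved with them, Pecam1 between 2842 and 10048, Cdh5 between 974 and 3566, Kdr between 3108 and 14518 and Cldn5 between 1459 and 6400 normalized counts over the 8 libraries. For Notch4, Dll4, Jag2, Lfng and Mfng the sign of the age change turned positive without those 3 libraries (0.37, 0.31, 0.20, 0.39 and 0.54, adjusted p between 0.198 and 0.56). Notch1 stayed negative (-0.19). As these genes were picked for peaking in young 2, young 3 and old 3, leaving those out takes more high values from young than from old. The turn is therefore partly built in. The part of endothelial RNA in these levels was not tested. Psen2 and Maml1 kept their calls without those libraries (-0.90, adjusted p = 0.00692, and -0.67, adjusted p = 0.02), and Aph1b was then at 0.43 (adjusted p = 0.12).

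**Figure D3:**
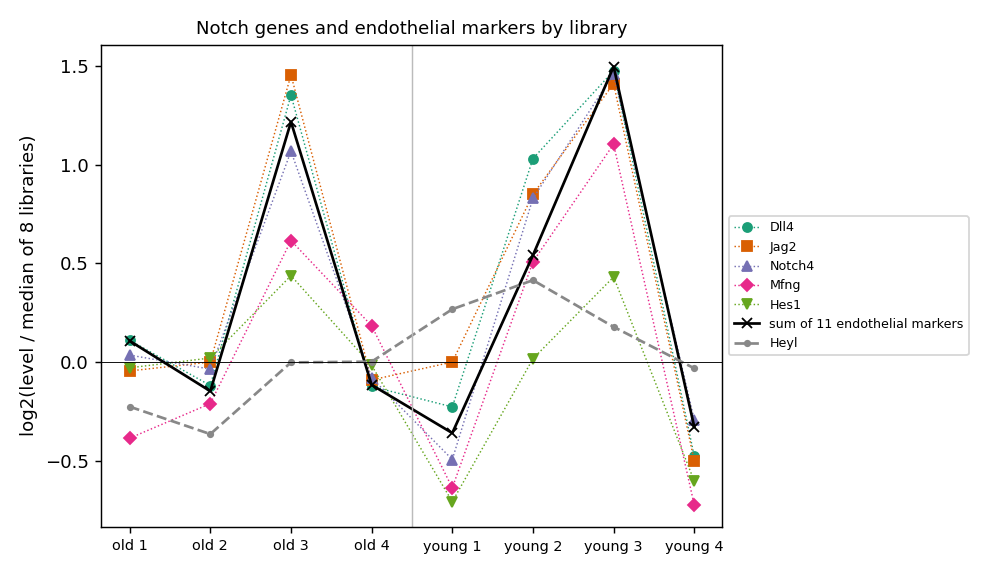
Level of 6 Notch pathway genes and of the summed 11 endothelial markers in each library, as log2 of the ratio to the median of the 8 libraries. Dll4, Jag2 and Notch4 peak with the marker sum in old 3, young 2 and young 3, while Heyl does not.

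Markers of fibro-adipogenic progenitors and tenocytes, the connective tissue cells of muscle, were mostly higher in old, some without overlap, though their sum overlapped. Of their 13 markers 11 had a higher mean in old, and 5 were called higher and 0 lower (3.34% and 1.88% of all tested genes). The 13 summed to 202409, 350868, 124379 and 296349 in old libraries 1 to 4, against 121199, 162850, 93333 and 96146 in young libraries 1 to 4 (exact permutation p = 0.0571, two-sided). All 13 were above 0 in every library. Dcn had 43419, 76702, 20128 and 55205 normalized counts in old libraries 1 to 4, against 8032, 15990, 6124 and 7567 in young libraries 1 to 4. Dcn, Lum and Tnmd did not overlap between ages (old above young, as for 7.99% of all genes). They were at 2.32 ± 0.39, 2.12 ± 0.33 and 2.46 ± 0.52 (limma adjusted p of 0.0104, 0.00691 and 0.0255). Pdgfra, between 129 and 1621, overlapped (1.80 ± 0.52, adjusted p = 0.0769). The sums overlapped, old 3 holding less than young 2. The part of these cells, and of the lower muscle stem cell markers, in the called changes of Psen2, Maml1 and Aph1b was not tested. The summed macrophage and leukocyte markers were 2178 to 6179 in old and 1379 to 3226 in young (exact permutation p = 0.0857). All 10 of them had a higher mean in old, and 1 was called higher and 0 lower. The summed myofibre and Schwann cell markers overlapped widely between ages (exact permutation p = 0.943 and 0.886).

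Enzymes that handle the ligand or add sugars to the receptor did not pass the test. Mib1 and Mib2, ubiquitin ligases that drive the endocytosis of ligands, were at -0.13 ± 0.13 and 0.14 ± 0.13. Pofut1, which adds O-fucose to Notch, had 442 ± 39.8 normalized counts in old and 442 ± 76.0 in young. Of the fringes, which extend that fucose and shift the receptor's preference among ligands, Rfng was at 0.14 ± 0.17, Lfng at -0.10 ± 0.34 and Mfng at -0.01 ± 0.40. Mfng had 120.1, 136, 240.4 and 178 in old, against 101, 223, 337 and 95.03 in young, again with its 3 highest values in the 3 libraries of high endothelial sums. Of these 6 genes limma, edgeR and DESeq2 called 0, and 0 had p under 0.05 before adjustment.

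Of the modulators, Numb and Numbl, adaptors that direct Notch to endocytosis, had 2352 ± 82.8 and 855 ± 129 normalized counts in old and 2336 ± 195 and 824 ± 167 in young. Numb had the smallest SE of the 32 (0.01 ± 0.08). Dtx1, a Deltex ubiquitin ligase, had 35.7, 123, 115 and 99.3 in old, against 38.4, 40.8, 45.8 and 1.65 in young. Old 1 lay within the young range and young 4 far below it, and the change of 2.00 ± 0.86 did not pass (adjusted p = 0.217). Without young 4 it was 1.00 (adjusted p = 0.27), and without 1 of the other libraries it lay between 1.82 and 2.41.

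Levels of different genes were compared per kilobase of exon (GENCODE M21 exon union). Heyl was first at both ages, with 2521 ± 309 normalized counts per kb in old and 3226 ± 411 in young (n = 4 each). Notch3 followed in young (1018 ± 133 in old and 1258 ± 359.5 in young) and Hes1 in old (1091 ± 182 in old and 913 ± 346 in young), neighbours that differed by less than their spread at each age. Among receptors the order was Notch3, Notch2, Notch1 and Notch4 at both ages. Notch2 had 289.7 ± 29.0 in old and 338 ± 58.6 in young, and Notch1 251 ± 42.4 in old and 305 ± 51.7 in young. In young libraries Notch2 and Notch1 differed by less than the SD of either. In old libraries they differed by less than the SD of Notch1 but by more than that of Notch2.

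Among ligands the order per kb was Dll4 (354 ± 206 in old, 414 ± 256 in young), Jag1 (235 ± 36.7 in old, 231 ± 12.8 in young), Dll1 (117 ± 11.2 in old, 127 ± 39.3 in young) and Jag2 (89.1 ± 55.9 in old, 97.3 ± 55.3 in young). The spread of Dll4 reached past Jag1. Of the coactivators Maml1 had 66.5 ± 7.99 per kb in old and 99.5 ± 2.72 in young, and Maml2 62.5 ± 4.31 in old and 46.4 ± 12.6 in young. In old libraries these differed by less than their spread, and in young libraries by more. Maml3 was the lowest of them at both ages (28.0 ± 5.58 in old, 17.9 ± 3.68 in young), and Hey2 and Dtx1 were the lowest of all 32.

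**Figure D4:**
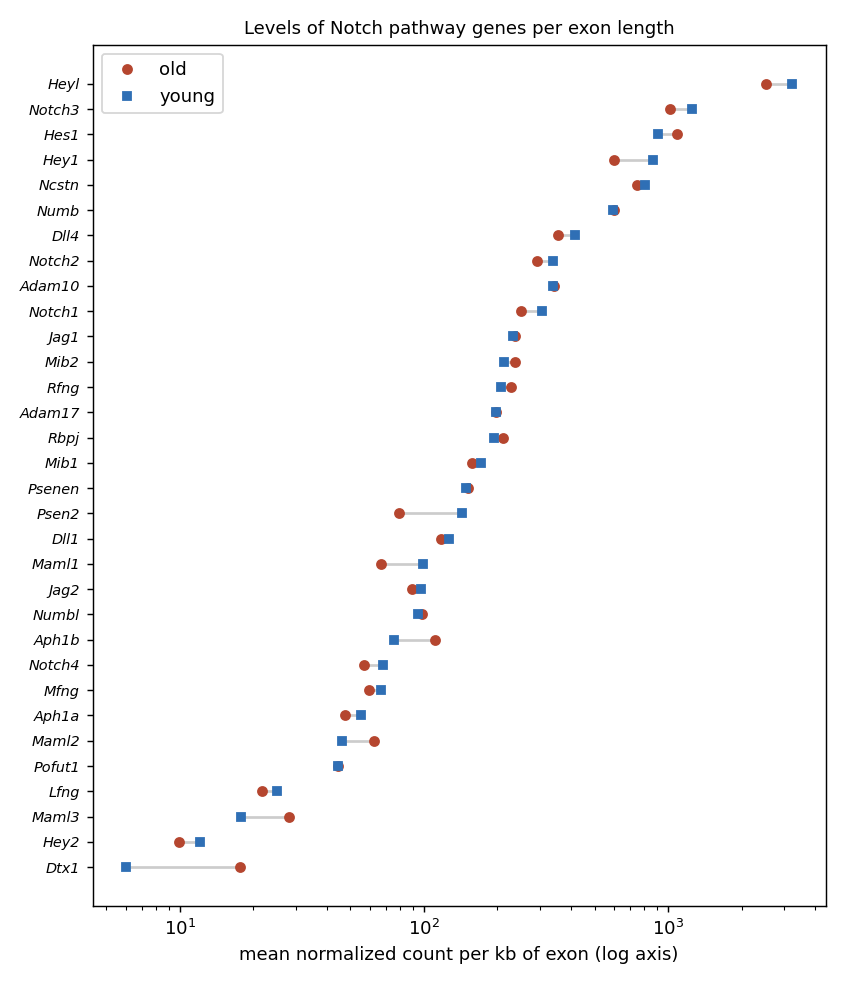
Mean normalized count per kb of exon of the 32 genes in old (red circles) and young (blue squares) libraries, on a log axis, ordered by the young level. Heyl stands first at both ages, and the widest gaps between the ages are those of Dtx1 and Psen2.

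Other genes of the pathway were read from a list of 44, of which 39 were tested. Of these 3 were higher and 0 lower (limma), beside 3.34% and 1.88% of all tested genes. Before adjustment 6 higher and 4 lower had p under 0.05, as had 20.8% of all tested genes. With edgeR 3 were higher and 0 lower (2.76% and 2.01% of all genes), and with DESeq2 3 and 2 (5.18% and 4.05%). The median change was -0.07, beside 0.04 over all tested genes. Bend6, a corepressor that antagonizes Notch through RBPJ in the mouse nervous system, was a low gene that rose, with 24.4, 29.4, 49.4 and 49.3 normalized counts in old libraries 1 to 4, against 4.20, 3.80, 9.87 and 3.31 in young libraries 1 to 4 (2.68 ± 0.46, adjusted p = 0.0104). All old values were above all young ones.

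Epn2, an epsin that takes part in ligand endocytosis, rose (2153 ± 257 in old and 1421 ± 249 in young, 0.61 ± 0.13, adjusted p = 0.0305), and so did Dtx3l, a Deltex family ubiquitin ligase (1556 ± 225 in old and 1011 ± 173 in young, 0.63 ± 0.15, adjusted p = 0.0373). Both lost the call in several alternatives, with 1 gene of the list left higher, Bend6, without young 1, young 4, old 2 or old 3. Of the rest the smallest p belonged to the Groucho corepressors Tle3 (-0.55 ± 0.15) and Tle1 (0.34 ± 0.10), to Furin, the protease that cleaves Notch on its way to the surface (-0.40 ± 0.12), and to the corepressor Ctbp1 (-0.20 ± 0.08). Their adjusted p were 0.0684, 0.0746, 0.09 and 0.175.

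Of 6 genes tied to RBPJ in mouse muscle stem cells, 5 known targets and the receptor of one of them, 2 were lower in old cells and 0 higher. Over all tested genes 1.88% were lower and 3.34% higher. Calcr, 1 of the 2, was also among the lower muscle stem cell markers above. Col5a1, a collagen V chain, fell (5012 ± 707 normalized counts in old and 8778 ± 1157 in young, -0.81 ± 0.12), as did Calcr, the receptor through which collagen V acts on these cells (-0.47 ± 0.08), with adjusted p of 0.00645 and 0.0114. Col5a3 was at -0.35 ± 0.16, Col6a1 at -0.12 ± 0.13, Col6a2 at 0.41 ± 0.23 and Pax7 at 0.17 ± 0.15, with adjusted p between 0.233 and 0.658. Col6a2 was highest in old 4 and old 2, which also held the highest fibro-adipogenic marker sums, whereas Col5a1 was lower in old. The part of fibro-adipogenic cells in the collagen values was not tested.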

How the data were processed

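RNA was sequenced from sorted muscle stem cells (4 old and 4 young libraries, built from amplified cDNA with a Nextera XT kit, per the labels' protocols). The deposited values are a signal per gene, normalized counts that the authors made from reads. Tools listed in the submitters' processing notes are DESeq2, featureCounts of Subread 1.5.1, STAR and Trim Galore 0.4.2, beside the builds GRCm39 and mm10 without a role for either. Such a kit does not mark strand, so that reads of a gene and of one on the opposite strand cannot be told apart. Dividing each column by its smallest value returned whole reads (within 0.01) for at least 99.97% of values above 0. In R 4.3.3, the trended test of limma 3.58.1 compared log2(normalized count + 1) between ages, without covariates, on the 14822 genes with a mean of at least 10, two-sided. Alternatives on those reads were DESeq2 1.42.0 and edgeR 4.0.16. The test was tried on simulated data. Marker sums were compared on a log2 scale by exact permutation over 70 arrangements (smallest p 0.0286). Markers were summed by fixed lists. All 32 members were named, with the called genes of a list of other pathway genes, the 4 next by p, and all of a list of known RBPJ targets and the collagen V receptor. The members, lists and rules were chosen with earlier results of these data known. Exon lengths and overlaps came from GENCODE M21. Promoter sequences are RefSeq's, build GRCm38.p6.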

Additional observations from a re-analysis of the deposited data

Results flagged for a closer look

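In a group of 4 libraries, 1 value can lie far from the rest, and chance alone gives this in about 1 in 20 groups. Of the 64 groups (32 genes at 2 ages), 6 had such a value, by the gap to the nearest library divided by the whole range. In old libraries it was old 3, as the highest, for Notch4 (0.932), Dll4 (0.901), Jag2 (0.966), Hes1 (0.908) and Adam10 (0.867). Old 3 also held the highest endothelial marker sum of the old libraries, 67433 against 26195 to 31254 in the other three, and its part in these values was not tested. In young libraries it was young 4, as the lowest, for Dtx1 (0.832), with 1.65 normalized counts.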

How the results depend on the processing

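Each value was computed under 20 alternatives. Of the 32 genes, 19 kept their sign in all of them and 12 kept both sign and call. Genes higher in old numbered 0 under quantile normalization, with eBayes without the trend, with the replicate block and with edgeR, and 2 with DESeq2 and without young 2, young 3 and old 3; without 1 library each they numbered 0 to 1. Those lower numbered 4 with DESeq2 and 4 without those 3 libraries, and 1 to 3 without 1 library each. Of the other pathway genes, 1 was higher without the trend and 5 without the 3 libraries, and 1 to 4 without 1 library each. Bend6 had no value at a minimum mean of 50. Lower ones numbered 1 with sample weights, 2 with DESeq2, 2 without the 3 libraries, and 0 to 2 without 1 library each. Over all genes 268 were higher and 134 lower without the trend, and 768 and 601 with DESeq2. Without the 3 libraries 1351 were higher, and without 1 library each 212 to 524 were higher and 118 to 316 lower. The median of the 32 ran from -0.15 to 0.04. Quantile normalization put the median of all genes at -0.03, beside 0.04.

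Signs turned for 13 genes, none of them called in any run. With edgeR and DESeq2 they were Adam10 (-0.016 and -0.024), Adam17 (-0.034 and -0.043), Jag1 (-0.0035 and -0.012), Numb (-0.022 and -0.031), Pofut1 (-0.029 and -0.036) and Psenen (-0.014 and -0.022). Quantile normalization turned Pofut1 (-0.088) and Psenen (-0.18), and equal totals Adam10 (-0.0064) and Psenen (-0.0032). Sample weights turned Dll1 (0.0060), Dll4 (0.0076), Jag1 (-0.0062), Lfng (0.015), Mfng (0.11), Notch4 (0.038) and Psenen (-0.029). Without the 3 libraries the values were Dll1 0.26, Dll4 0.31, Jag1 -0.020, Jag2 0.20, Lfng 0.39, Mfng 0.54, Notch4 0.37, Numb -5.84e-05 and Psenen -0.037. Without 1 library each the ranges were -0.15 to 0.083 for Adam10, -0.079 to 0.11 for Adam17, -0.20 to 0.11 for Dll1, -0.49 to 0.20 for Dll4, -0.053 to 0.11 for Jag1, -0.48 to 0.21 for Jag2, -0.39 to 0.10 for Lfng, -0.27 to 0.33 for Mfng, -0.42 to 0.23 for Notch4, -0.028 to 0.052 for Numb, -0.058 to 0.17 for Numbl, -0.11 to 0.096 for Pofut1 and -0.092 to 0.099 for Psenen. The cause was not tested.

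Libraries of the same number deviated together weakly (correlations 0.188, 0.072, 0.304 and -0.042 for numbers 1 to 4). The number was not taken as a pairing in the main test. At the same time, 5 of 8 libraries correlated best with their own number in the other age. These values therefore do not decide whether the numbers pair the libraries. With the number as a replicate block, 559 genes were higher and 252 lower. Hey1 was then called (-0.54, adjusted p = 0.0114) and Aph1b was not (adjusted p = 0.0519), so both calls depend on this choice.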
